A study of Mus musculus with 16 samples.

Results

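The mouse genome encodes 6 conventional actins, and all 6 genes were read from the deposited gene counts of heart ventricle by their symbols (Acta1, Actc1, Acta2, Actg2, Actb and Actg1) out of 54132 rows. The cardiac knockout (cKO) mice carried Myh6-Cre with floxed alleles of Rbpms, an RNA-binding protein gene (genotype Myh6-Cre, Rbpms fl/fl), and the control mice carried the floxed alleles alone (Rbpms fl/fl). All were 8 weeks old. Each genotype had 4 libraries, of which replicate 3 was female and the other 3 were male. The Myh6 promoter drives Cre in cardiomyocytes, so other cells of the ventricle keep Rbpms, and because no control carried Cre, the effect of Cre and that of Rbpms loss cannot be told apart. The comparison asks how expression of the actin genes differs in ventricles whose cardiomyocytes lack Rbpms. Ventricles of newborn mice also belong to the study and were not analysed here.

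Actin is the protein of the thin filament of the sarcomere and of the microfilaments found in every cell. The mammalian family falls into striated muscle forms (Acta1, skeletal alpha-actin, and Actc1, cardiac alpha-actin), smooth muscle forms (Acta2, vascular alpha-actin, and Actg2, enteric gamma-actin) and cytoplasmic forms (Actb, beta-actin, and Actg1, gamma-actin). Actc1 is the main form of the adult heart, while Acta1 is expressed in the developing heart and is a classical marker of the return to fetal genes in the stressed adult ventricle. Serum response factor (SRF), with its cofactors of the myocardin family, drives transcription of these genes through CArG boxes in their promoters.

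Library totals ran from 20190334 to 24540433 counts. Rbpms fell to 31.8 ± 5.82 CPM (counts scaled to a common library size with TMM factors; mean ± SD, n = 4) in cKO ventricles, against 159.7 ± 42.8 in controls, and every cKO library lay below every control (adjusted p = 3.54e-05 by edgeR). Heart muscle markers were abundant in all libraries, with 14 of 14 detected, 0 that rose and 2 that fell in cKO ventricles (Ryr2 and Tnni3), and a summed level of 44269 to 52530 CPM in cKO and 50025 to 65149 CPM in control libraries. Their median log2 fold change was -0.20, with 3 positive and 11 negative, against a median of 0.01 over all tested genes. Of all 16051 tested genes, 9.64% rose and 9.64% fell at an adjusted p under 0.05. Control replicate 4 stood apart in genes of skeletal muscle, given with Acta1, and in its share of mitochondrially encoded counts, which was 8.04% to 9.30% in cKO libraries, 11.8% in that library and 8.95% to 10.1% in the other controls. It also had the lowest Rbpms of the controls, at 101.6 CPM, against 190.5, 153.5 and 193.2 CPM in control replicates 1 to 3. The labels do not say that each library came from a separate animal, so the p-values describe spread among libraries, which may be technical.

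The coding sequences of the 6 genes resemble each other closely, and the region around the start codon is shown because it is where they differ in length (GENCODE M21, GRCm38, all on the minus strand). Capitals mark bases that differ from Acta1 when the coding sequences are aligned at their 3′ ends, so the start codon of a shorter gene appears in capitals.
Acta1: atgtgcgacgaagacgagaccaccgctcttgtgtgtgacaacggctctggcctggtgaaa
Actc1: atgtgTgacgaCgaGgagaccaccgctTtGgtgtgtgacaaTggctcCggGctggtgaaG
Acta2: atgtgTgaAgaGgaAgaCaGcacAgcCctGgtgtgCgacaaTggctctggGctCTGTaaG
Actg2: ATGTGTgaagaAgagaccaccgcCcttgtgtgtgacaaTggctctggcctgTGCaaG
Actb: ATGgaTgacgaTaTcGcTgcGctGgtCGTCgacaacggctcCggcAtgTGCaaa
Actg1: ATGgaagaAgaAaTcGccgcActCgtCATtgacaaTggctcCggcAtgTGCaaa
These stretches lie at chr8:123893638-123893697 (Acta1), chr2:114051972-114052031 (Actc1), chr19:34252494-34252553 (Acta2), chr6:83527385-83527441 (Actg2), chr5:142905633-142905686 (Actb) and chr11:120348038-120348091 (Actg1), within coding exons. Coding sequences were 377 codons long in Acta1, Actc1 and Acta2, 376 in Actg2 and 375 in Actb and Actg1, stop codon not counted. Identity over the coding sequence was highest between Actb and Actg1 (88.6%) and lowest between Acta2 and Actg1 (81.7%), with 86.3% between Acta1 and Actc1.

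Because the paralogs are so alike, reads could in principle be counted for the wrong gene, and how the authors treated reads with several alignments is not given in the sources used here. Of all windows of 100 bases in the main coding transcript of each gene, 0 were shared with another of the 6. At 50 bases, 2.00% of the windows of Acta1 were shared with another actin gene, 2.57% of those of Actb, 1.94% of those of Actg1 and 0.352% of those of Acta2, while Actc1 and Actg2 shared 0. With genes outside the family included, 266 of 1871 windows of Actb (14.2%) were shared at 50 bases, and 20 of 1821 (1.10%) at 100. Outside the family Lrrc58 led at 50 bases, with 3132 to 3971 counts in cKO and 2379 to 4184 in control libraries. Actg1 is the member whose counting is least certain. Of its 100-base windows, 946 of 1853 (51.1%) also occur in transcripts of annotated pseudogenes, led by Gm12715. The 5 such pseudogenes with a row in the table held 20 to 49 counts per library together, which is 0.606% to 1.40% of the Actg1 count. Gm20388 overlaps Acta1 on the other strand and had 0 counts, and A530058N18Rik overlaps Actc1 on the other strand with 27 to 45 counts in cKO and 17 to 36 in control libraries. Whether counting used the strand is not stated, so reads of a gene and its partner on the other strand may be mixed.

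The actin genes that differed between genotypes were Acta1 and Actg1. With the quasi-likelihood test of edgeR and a threshold of 0.05 on the adjusted p, 2 of the 6 were higher in cKO ventricles and 0 lower, where 19.3% of 16051 tested genes were called (9.64% higher and 9.64% lower). At an unadjusted p under 0.05, 0 were lower as well, and DESeq2 and limma-voom also called 0 lower. With sex as a covariate, or with no filter on low counts, 1 was called lower, Acta2. All 6 passed the filter on low counts. Their median log2 fold change was 0.26, against 0.01 over all tested genes. CPM ranges of the genotypes were separate for the same 2 genes, as they were for 23.5% of all tested genes.

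**Figure D1:**
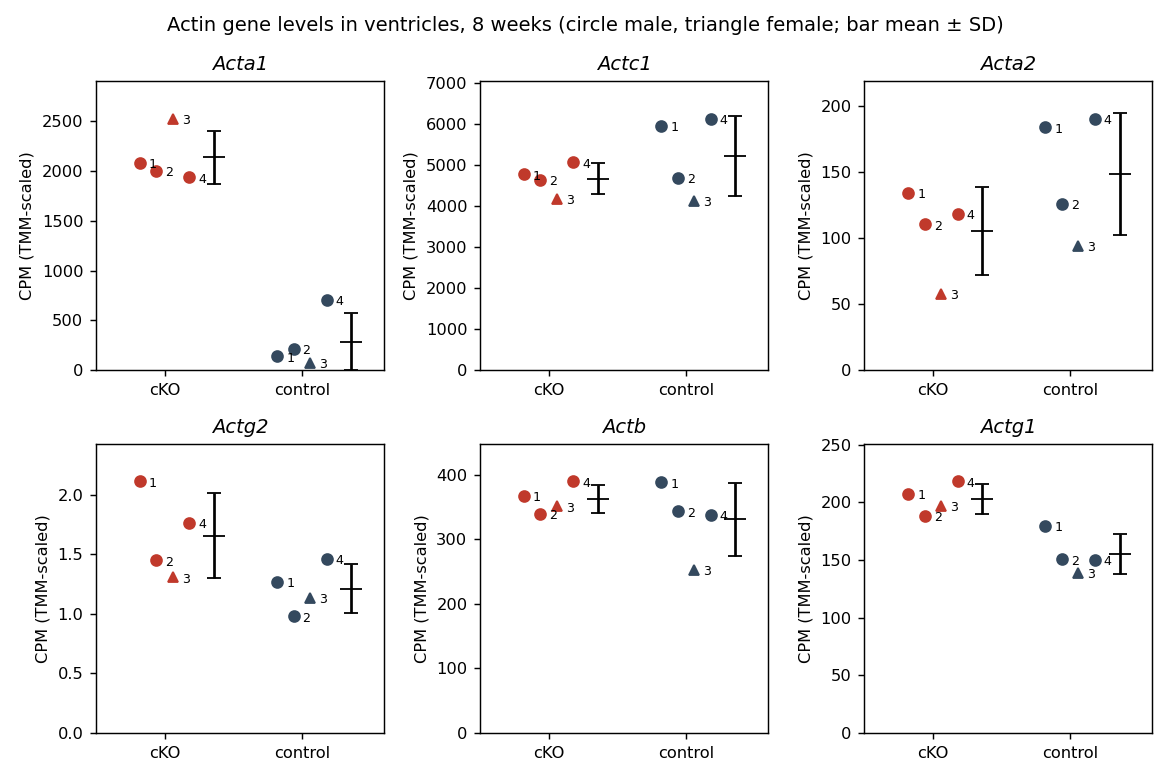
Level of each actin gene (vertical axis, TMM-scaled CPM, starting at 0) in each cKO (red, left) and control (dark, right) library, numbered by replicate, with circles for males, triangles for females and black bars for the mean ± SD (n = 4 per genotype). The groups are apart for Acta1 (1937 to 2523 CPM in cKO, 75.6 to 705 CPM in controls) and for Actg1 (188 to 218 CPM in cKO, 139 to 179.8 CPM in controls), and overlap for the other 4 genes.

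Acta1, skeletal alpha-actin (chr8:123891769-123894751), had 2082, 2002, 2523 and 1937 CPM in cKO replicates 1 to 4, against 140.2, 215, 75.6 and 705 CPM in control replicates 1 to 4. Every cKO library lay above every control, and control replicate 4 lay well above the other 3 controls. The fitted rise was 7.52-fold (log2 fold change 2.91 ± 0.54 SE, 95% interval 1.72 to 4.10, adjusted p = 0.00317 by edgeR), the 30th highest log2 fold change among the tested genes. Without control replicate 4 the rise was 14.9-fold (log2 fold change 3.89, adjusted p = 6.35e-05 by edgeR). Raw counts give the depth behind these values, 45067 to 63750 in cKO and 1795 to 13500 in control libraries. Per kilobase of exon, Acta1 ranked 18th of 15891 genes in cKO ventricles and 169th in controls, or 353rd in controls without replicate 4.

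Control replicate 4 also carried most of the control counts of several fast skeletal muscle genes. Myh4, the fast IIb myosin heavy chain, had 0 to 7 counts in the cKO libraries, 1113 in control replicate 4 and 0 in the other 3 controls. Myh1, the IIx form, had 0 to 7 counts in cKO libraries, 215 in control replicate 4 and 4 in the other controls together. Tnnt3, fast skeletal troponin T, had 66 to 227 counts in cKO libraries, 346 in control replicate 4 and 43 in the other controls together. Of 20 skeletal muscle markers 11 were highest in that library. The high Acta1 of control replicate 4 therefore stood beside high skeletal markers. In the cKO libraries the IIb, IIx and IIa myosin genes (Myh4, Myh1 and Myh2) were at or near 0, but 7 of the 20 markers lay above control replicates 1 to 3 in every cKO library, and 3 of these (Mybpc2, Casq1 and Tnni1) above control replicate 4 as well. The other 4 were Atp2a1 (4.13 to 23.8 CPM in cKO libraries, 1.22 to 3.77 CPM in control replicates 1 to 3 and 36.8 CPM in control replicate 4), Mylpf, Tnnt3 and Ryr1. Of all tested genes, 23.5% had genotype ranges that did not overlap, in either direction. The share that lay above control replicates 1 to 3 alone was not computed, so these counts of markers have no matching background. The part of skeletal muscle RNA in the Acta1 values of either genotype was not tested.

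Some other skeletal markers rose in cKO ventricles. The summed level of the 20 markers was 414.5 to 537 CPM in cKO and 144 to 383 CPM in control libraries, and 169.8 CPM was the highest control value outside replicate 4. Most of the sum in cKO libraries came from Mybpc2 (151 to 214 CPM) and Casq1 (102 to 238 CPM). Among the tested markers, 8 had a positive and 6 a negative log2 fold change. Of 14 tested, 3 rose (Mybpc2, Casq1 and Tnnt1) and 1 fell (Cacna1s, log2 fold change -1.24), against 9.64% of all tested genes in each direction. Without control replicate 4, 6 rose. The number that rose was 2 when cKO replicate 1, 2 or 4 or control replicate 1, 2 or 3 was left out, with robust dispersions and with limma-voom. The number that fell was 2 without control replicate 3 and 5 with no filter. Over all tested genes 1129 to 1458 rose when each library was left out, against 1548 with all libraries. Mybpc2, fast myosin-binding protein C, reached 186 ± 31.2 CPM in cKO ventricles, against 30.6 ± 13.7 CPM in controls (log2 fold change 2.61). Casq1, the skeletal calsequestrin, had a log2 fold change of 1.88 and Tnnt1, slow skeletal troponin T, 0.45. Tnnc2 and Myf6 had 0 counts in all 8 libraries.

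**Figure D2:**
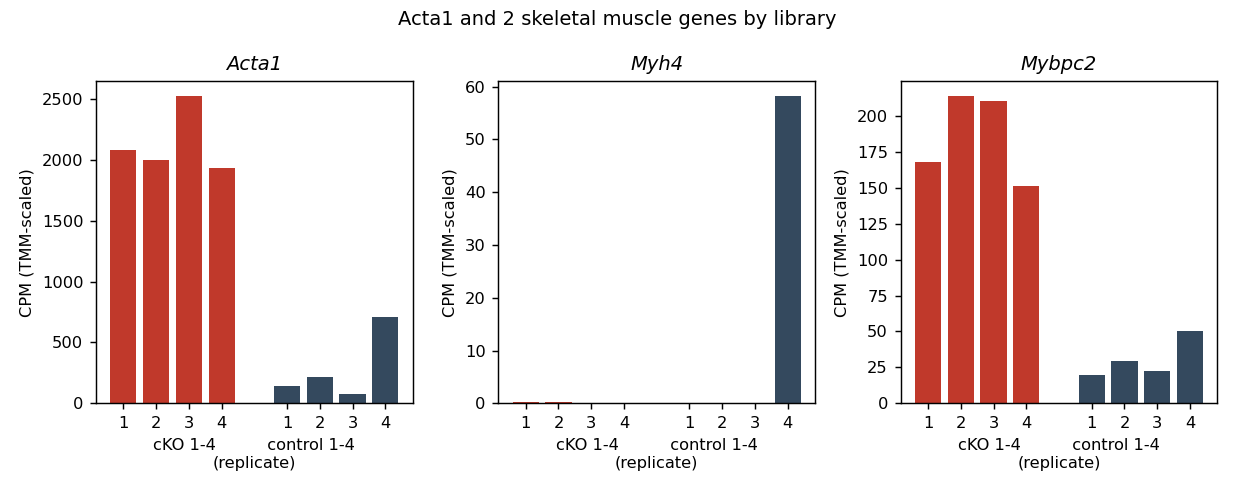
Acta1 and a pair of skeletal muscle genes, Myh4 and Mybpc2, in cKO (red, left) and control (dark, right) libraries, with replicate number on the horizontal axis and TMM-scaled CPM on the vertical axis. Myh4 stands out in control replicate 4 alone (58.2 CPM) and is at most 0.308 CPM in cKO libraries, while Acta1 and Mybpc2 are high in all 4 cKO libraries.

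Actc1, cardiac alpha-actin (chr2:114047282-114053548), did not pass the test. It had 4773, 4646, 4174 and 5071 CPM in cKO replicates 1 to 4, against 5959, 4692, 4128 and 6127 CPM in control replicates 1 to 4. The ranges overlapped, with the female library lowest in each genotype. The log2 fold change was -0.16 ± 0.13 SE (95% interval -0.45 to 0.12, adjusted p = 0.443 by edgeR), an interval that spans a modest fall, no change and a small rise. Among the actin genes it remained the most abundant per kilobase in all 8 libraries, at 2884 ± 231 CPM per kilobase in cKO and 3230 ± 602 in control ventricles.

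Together Acta1 and Actc1 summed to 6802 ± 164 CPM in cKO and 5511 ± 1179 CPM in control ventricles, with overlapping ranges (6647 to 7008 CPM in cKO and 4203 to 6833 CPM in controls). The sum varied with a coefficient of variation of 2.41% among cKO and 21.4% among control libraries. In cKO replicate 3 the highest Acta1 stood beside the lowest cKO Actc1. The number of Acta1 counts per Actc1 count was 0.436, 0.431, 0.604 and 0.382 in cKO replicates 1 to 4, and 0.0235, 0.0459, 0.0183 and 0.115 in control replicates 1 to 4. Acta1 made up 32.6 ± 4.40% of the striated pair per kilobase in cKO ventricles, against 4.93 ± 4.09% in controls and 2.97% without control replicate 4. The groups did not overlap in either ratio.

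The smooth muscle forms were measured at lower levels and neither passed the test. Acta2, vascular alpha-actin (chr19:34241090-34255590), which is made by smooth muscle cells and myofibroblasts, had 134, 111, 58.0 and 119 CPM in cKO replicates 1 to 4, against 184, 126, 94.3 and 190.4 CPM in control replicates 1 to 4. Ranges overlapped, and the female library was the lowest in each genotype. The log2 fold change was -0.50 ± 0.26 SE (95% interval -1.06 to 0.07, adjusted p = 0.215 by edgeR). With sex as a covariate the log2 fold change was -0.52 and Acta2 was called lower (adjusted p = 0.0105 by edgeR), and in the 6 male libraries alone it was -0.46 (adjusted p = 0.0565). Actg2, enteric gamma-actin (chr6:83512905-83536265), rested on few reads, with 51, 33, 33 and 41 counts in cKO replicates 1 to 4 and 28, 20, 27 and 28 counts in control replicates 1 to 4. Its level was 1.66 ± 0.36 CPM in cKO and 1.21 ± 0.20 CPM in control ventricles (log2 fold change 0.45 ± 0.26 SE, 95% interval -0.12 to 1.02, adjusted p = 0.265 by edgeR).

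Markers of the cells that make these actins were read beside them. All 11 smooth muscle markers were detected, with a summed level of 800.3 to 954 CPM in cKO and 977 to 1038 CPM in control libraries, ranges that did not overlap. Their median log2 fold change was 0.005, the same as over all tested genes, with 6 positive and 5 negative. Among these markers Smtn (smoothelin), Myocd (the SRF cofactor myocardin, also made by cardiomyocytes) and Pcp4l1 fell, with log2 fold changes of -0.79, -0.63 and -0.41, while Itga8 and Lmod1 rose with 0.99 and 0.54. Of all 16051 tested genes, 9.64% were called in each direction. Smtn and Myocd had large parts in the lower sum, at 99.6 and 88.1 CPM in cKO and 172 and 136 CPM in control ventricles. Tagln, a defining smooth muscle gene, had few counts, at 1.79 ± 0.69 CPM in cKO and 1.71 ± 0.075 CPM in control ventricles. Of 9 pericyte markers 1 rose (Cspg4, 0.56) and 2 fell (Kcnj8 and Vtn, -0.35 and -0.49), against the same 9.64% in each direction. These calls were lost in part when libraries were left out, with 0 or 1 rising and 0 to 2 falling. The pericyte markers summed to 1333 to 1582 CPM in cKO and 1396 to 1515 CPM in control libraries. Fewer cells of a type and less RNA per cell cannot be told apart in whole ventricle, and the part of either in the Acta2 values was not tested. The number of smooth muscle markers that rose was 4 when cKO replicate 3 was left out and in males alone, and 1 when any other library was left out and with limma-voom.

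Among the cytoplasmic forms Actg1 rose and Actb did not pass. Actg1, gamma-actin (chr11:120345690-120348542), had 207, 188, 197 and 218 CPM in cKO replicates 1 to 4, against 179.8, 151, 139 and 150.3 CPM in control replicates 1 to 4. All cKO libraries lay above all controls, by a small margin over control replicate 1. The rise was 1.31-fold (log2 fold change 0.39 ± 0.09 SE, 95% interval 0.19 to 0.59, adjusted p = 0.0108 by edgeR). Actb, beta-actin (chr5:142903115-142906754), had 367, 339, 351 and 389 CPM in cKO replicates 1 to 4, against 388, 343, 253 and 338 CPM in control replicates 1 to 4. Its ranges overlapped, and the log2 fold change was 0.13 ± 0.12 SE (95% interval -0.12 to 0.38, adjusted p = 0.489 by edgeR). The difference between the changes of these genes was not tested as such. The ratio of Actb to Actg1 counts was 1.77, 1.80, 1.78 and 1.79 in cKO replicates 1 to 4, and 2.16, 2.28, 1.82 and 2.25 in control replicates 1 to 4, so it was lower in every cKO library. Its SD was 0.0139 among cKO libraries and 0.210 among controls, or 0.0620 without control replicate 3. The size of the ratio may also depend on how reads shared by Actg1 and pseudogenes were counted.

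Cytoplasmic actins are abundant in non-muscle cells, and markers of such cells were read beside them. Their calls stand against 9.64% of all tested genes in each direction. All 18 fibroblast markers were detected in both genotypes, 16 rose and 0 fell, and their summed level was 5806 to 6873 CPM in cKO and 2705 to 3641 CPM in control libraries. Cilp, Mfap4 and Mfap5, all genes of the extracellular matrix, had log2 fold changes of 2.91, 2.03 and 1.58. The 15 macrophage markers summed to 396 to 446 CPM in cKO and 239 to 383 CPM in control libraries, of which Lgals3, Cd163, Lyz2 and Mrc1 rose (log2 fold changes 1.94, 0.61, 0.52 and 0.42), 0 fell and 11 did not pass. With sex as a covariate 7 macrophage markers rose. The number of all tested genes called higher also varied, from 1214 to 1992 among the alternatives that left out no single library, against 1548. The 15 endothelial markers summed to 1943 to 2305 CPM in cKO and 2129 to 2460 CPM in control libraries, where Plvap and Vwf rose (0.78 and 0.34) and Flt1 fell (-0.29). Together these endothelial calls were close to the 19.3% over all tested genes. The call of Flt1 was lost on leaving out any library but control replicate 2, and 1 endothelial marker rose without cKO replicate 1. The part of these cells in the rise of Actg1 was not tested. The 10 atrial markers summed to 183 to 397 CPM in cKO and 123 to 330.2 CPM in control libraries, with overlapping ranges. Of 9 tested, Dkk3 and Nr2f2 rose (1.42 and 0.30) and Kcna5 fell (-0.42), with 1 to 4 rising and 0 or 1 falling when each library was left out.

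**Figure D3:**
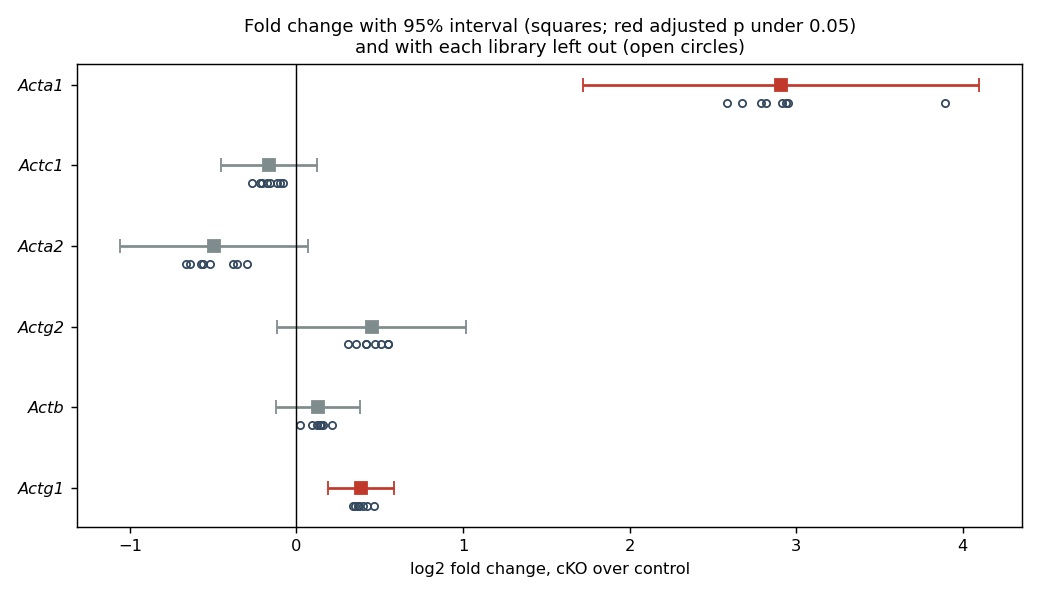
Log2 fold change of cKO over control for each actin gene (squares with 95% intervals, n = 4 libraries per genotype; red for an adjusted p under 0.05 by edgeR, grey otherwise), and the same with each library left out in turn (open circles). Acta1 stays between 2.59 and 3.89 and Actg1 between 0.34 and 0.46, while the intervals of the other 4 genes include 0.

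Levels of different genes were compared per kilobase of exon. The level of Actg1 carries the uncertainty in counting given above, since 51.1% of its 100-base windows also occur in pseudogene transcripts. In cKO ventricles the order was Actc1 (2884 ± 231 CPM per kilobase), Acta1 (1391 ± 172), Actb (135 ± 8.08), Actg1 (76.3 ± 4.87), Acta2 (48.0 ± 15.1) and Actg2 (1.06 ± 0.23), and no neighbours in this order overlapped. In control ventricles it was Actc1 (3230 ± 602), Acta1 (185 ± 187), Actb (123 ± 21.03), Acta2 (67.7 ± 21.1), Actg1 (58.3 ± 6.55) and Actg2 (0.78 ± 0.13). Acta1 and Actb overlapped among controls, as did Acta2 and Actg1. The order of the latter pair depended on the length used. Per kilobase of the main coding transcript, the control mean of Actg1 (79.4 ± 8.92) lay above that of Acta2 (73.1 ± 22.8). The Acta1 mean of controls rests on replicate 4, without which it was 93.6 CPM per kilobase and lay below the Actb mean of 122.

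As a share of the summed counts of the 6 genes, Acta1 accounted for 27.5%, 27.5%, 34.5% and 25.04% in cKO replicates 1 to 4, against 2.05%, 3.90%, 1.61% and 9.39% in control replicates 1 to 4. The lowest cKO share was well above the highest control share. Actc1 held 63.1%, 63.8%, 57.1% and 65.6% in cKO replicates 1 to 4, and 87.0%, 84.9%, 88.0% and 81.6% in control replicates 1 to 4. Its share was thus lower in every cKO library although its level did not pass the test. Acta2 held 1.78%, 1.52%, 0.794% and 1.53% in cKO and 2.69%, 2.28%, 2.01% and 2.53% in control replicates 1 to 4, again without overlap. Actb held 4.84 ± 0.15% in cKO and 5.44 ± 0.71% in control ventricles, Actg1 held 2.71 ± 0.10% in cKO and 2.58 ± 0.41% in controls, and Actg2 held 0.0221 ± 0.0044% in cKO and 0.0200 ± 0.0029% in controls, each with overlapping ranges and a difference smaller than the control SD. Shares of 1 library sum to 100, so they are not independent of each other, and no test was applied to them.

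**Figure D4:**
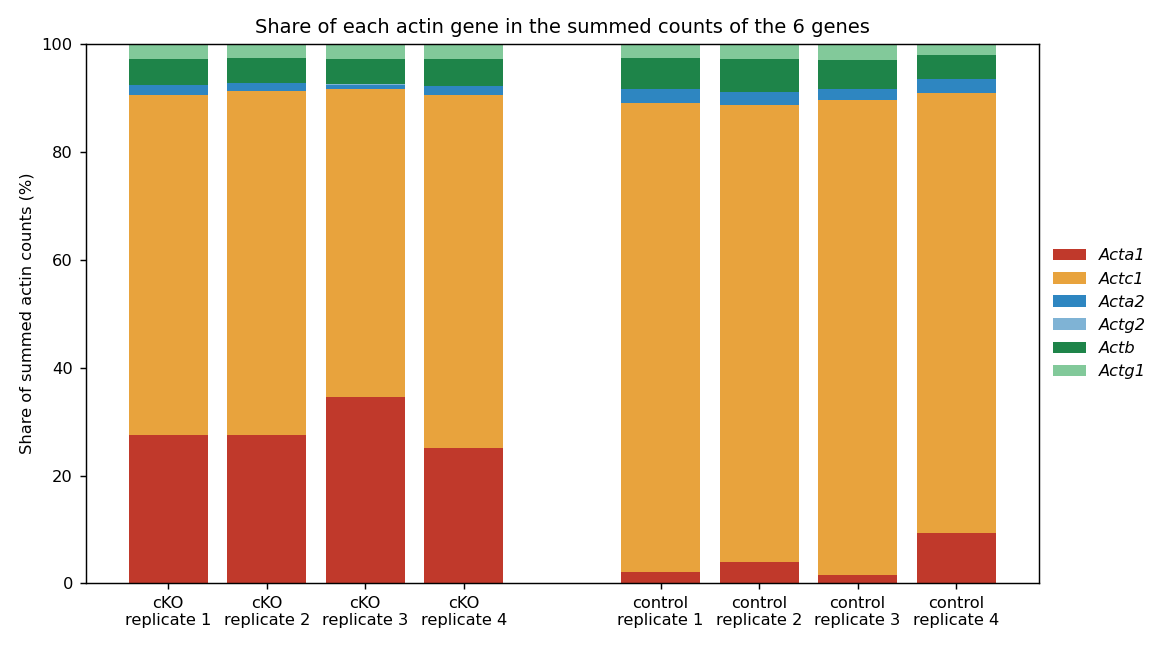
Stacked bars of the share of each actin gene (vertical axis, percent of the summed counts of the 6 genes) in each cKO library (left) and control library (right). Acta1 (red) takes 25.04% to 34.5% of the actin counts in cKO and 1.61% to 9.39% in control libraries, and Actc1 (orange) takes 57.1% to 65.6% in cKO and 81.6% to 88.0% in control libraries.

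The 6 genes together made up 0.769 ± 0.031% of all counts in cKO and 0.594 ± 0.105% in control ventricles, without overlap. On the TMM scale their summed level was 7474 ± 217 CPM in cKO and 6146 ± 1274 CPM in control ventricles, with overlapping ranges. With Acta1 left out the sum was 5338 ± 427 CPM in cKO and 5862 ± 1076 CPM in control ventricles, again with overlapping ranges. The smooth muscle class held 1.43 ± 0.43% of the actin counts in cKO and 2.40 ± 0.30% in control ventricles, and the cytoplasmic class 7.55 ± 0.25% in cKO and 8.02 ± 1.05% in controls.

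The female library of each genotype differed in the same direction from the males for some actin genes. Actc1 was 4174 CPM in the female cKO library, against 4646 to 5071 CPM in male cKO libraries, and 4128 CPM in the female control, against 4692 to 6127 CPM in male controls. Acta2 was likewise below the male range in each genotype. Acta1 went opposite ways, with 2523 CPM in the female cKO library, above the males (1937 to 2082 CPM), and 75.6 CPM in the female control, below the males (140.2 to 705 CPM). The sex term itself was not tested. In males alone the log2 fold change of Acta1 was 2.501 (adjusted p = 0.00400 by edgeR) and that of Actg1 was 0.35 (adjusted p = 0.0367).

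Promoters are shown because the CArG box is the element through which SRF acts on actin genes. RefSeq (GRCm38.p6) gave a promoter for 4 of the 6 genes, with none for Actb and Actg2. The 250 bases before the transcription start were searched on both strands for the CArG box, a run of 10 bases, and for the same box with 1 letter of its core replaced by C or G, a set that includes the exact box. Capitals mark both kinds. Acta1 and Actc1 are printed over all 250 bases, and Acta2 and Actg1 over a part around their boxes, from 124 to 1 and from 130 to 41 bases before the start.
Acta1 (chr8:123894776-123895025, minus strand): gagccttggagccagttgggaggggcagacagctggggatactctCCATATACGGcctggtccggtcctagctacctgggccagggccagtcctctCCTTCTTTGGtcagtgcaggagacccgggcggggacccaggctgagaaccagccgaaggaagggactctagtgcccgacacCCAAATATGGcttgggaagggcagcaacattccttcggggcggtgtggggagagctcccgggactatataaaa
Actc1 (chr2:114052876-114053125, minus strand): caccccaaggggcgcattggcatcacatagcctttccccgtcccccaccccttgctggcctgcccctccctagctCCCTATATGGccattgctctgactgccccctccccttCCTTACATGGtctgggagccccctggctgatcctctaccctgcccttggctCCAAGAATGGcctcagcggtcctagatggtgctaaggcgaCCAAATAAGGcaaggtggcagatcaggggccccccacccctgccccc
Acta2 (chr19:34255374-34255497, minus strand): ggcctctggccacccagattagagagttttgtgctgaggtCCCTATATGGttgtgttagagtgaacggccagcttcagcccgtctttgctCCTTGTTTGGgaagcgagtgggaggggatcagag
Actg1 (chr11:120348536-120348625, minus strand): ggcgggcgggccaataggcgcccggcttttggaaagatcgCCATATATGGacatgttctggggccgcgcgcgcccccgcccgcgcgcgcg
Acta1 held an exact box that starts 73 bases before the transcription start, Actc1 another at 47 and Actg1 another at 90, while Acta2 held only boxes with 1 other letter, at 84 and 34. These distances hold for the RefSeq starts, which differ from the GENCODE gene bounds given above. The searched Actc1 bases lie inside the GENCODE gene, those of Acta2 and Actg1 overlap it in part, and those of Acta1 lie outside it. Acta1 had 2 and Actc1 had 3 further boxes with 1 other letter. An exact box occurred in 1.47% of the 32851 RefSeq promoters of this length and a box with up to 1 other letter in 8.59%. Exact boxes were found in Acta1 and Actg1, which were called higher, and in Actc1, which did not pass. Acta2, which did not pass either, held none. The part of these boxes in the changes was not tested.

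**Figure D5:**
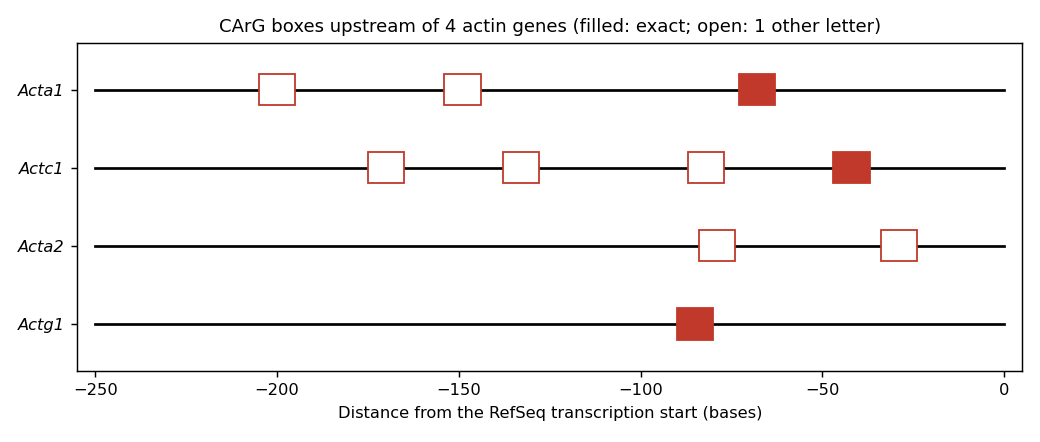
Positions of CArG boxes in the 250 bases before the RefSeq transcription start of 4 actin genes (horizontal axis, bases from the start). Filled boxes match exactly (starting 73 bases before the start in Acta1, 47 in Actc1 and 90 in Actg1), and open boxes differ by 1 letter, the only kind found in Acta2.

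For the gene lists that follow, the share of all 16051 tested genes is 9.64% in each direction. Of 16 regulators of actin transcription 2 rose (Abra and Yap1) and 2 fell (Myocd and Mef2a), close to that share, with a median log2 fold change of -0.05, against 0.01 over all tested genes. Abra, the actin-binding activator of SRF signalling also known as STARS, rose 3.62-fold to 124.5 ± 65.7 CPM in cKO ventricles, against 34.3 ± 5.44 CPM in controls (adjusted p = 8.24e-04 by edgeR). Myocd fell to 88.1 ± 9.14 CPM in cKO ventricles, against 136 ± 5.76 CPM in controls (log2 fold change -0.63, adjusted p = 4.74e-04 by edgeR). Mef2a, a muscle transcription factor, fell with -0.46. Srf itself, Mrtfa and Mrtfb (listed as Mkl1 and Mkl2) were among the 12 that did not pass.

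Among 29 genes that SRF is known to drive, most of them cytoskeletal, 7 rose and 3 fell. The share of all tested genes was 9.64% in each direction, which the number that fell was close to. The list also holds secreted proteins (Ctgf and Cyr61), transcription factors (Egr1, Fos, Junb and Srf) and integrins (Itga1 and Itgb1). The median log2 fold change was 0.17. Ctgf, a matricellular signal protein, rose to 279.6 ± 95.2 CPM in cKO ventricles, against 79.1 ± 16.5 CPM in controls. Pdlim5, Cyr61, Egr1 and Actn1 rose with log2 fold changes of 0.74, 0.74, 0.93 and 0.36. The LIM proteins went opposite ways, Fhl1 with 1.48 and Fhl2 with -1.35, and Smtn and Cnn2, a calponin, fell with -0.79 and -0.32. Vcl, Tagln and Cnn1 were among the 19 that did not pass. Without cKO replicate 1, 4 of the list rose.

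Genes that nucleate or extend filaments rose in 8 of 34 and fell in 3, against 9.64% of all tested genes in each direction, which the number that fell was close to. The median log2 fold change was 0.07. The rises included Arpc1b and Arpc5l of the Arp2/3 complex (0.50 and 0.44), Enah, an anti-capping protein (0.59), and all 3 leiomodins, Lmod1, Lmod2 and Lmod3 (0.54, 0.38 and 0.35), which nucleate filaments in muscle. Cobll1, the formin Fhod3 and Evl fell (-0.61, -0.67 and -0.48). That number of rises depended on the libraries. It was 5 when control replicate 1 or 3, or any of cKO replicates 2 to 4, was left out. It was 4 when control replicate 2 or cKO replicate 1 was left out or when males alone were used. Over all tested genes the number that rose also dropped, to 1129 to 1458 when each library was left out, against 1548 with all libraries. Genes that bind monomers or take filaments apart rose in 6 of 24 and fell in 1, against the same 9.64% in each direction, with a median of 0.15. Dstn, destrin, was the member that fell, to 133 ± 14.9 CPM in cKO ventricles, against 219.9 ± 9.41 CPM in controls (log2 fold change -0.72). Pfn2, profilin 2, and the severing protein Gsn, gelsolin, which fibroblasts also make, rose with 0.65 and 0.62, and Cfl2, the muscle cofilin, with 0.36.

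Partners of actin on the thin filament, at its ends and at the Z-disc rose in 6 of 27 tested and fell in 3, against 9.64% of all tested genes in each direction, with a median log2 fold change of 0.04. Tpm2, beta-tropomyosin, reached 70.02 ± 33.7 CPM in cKO ventricles, against 27.04 ± 3.88 CPM in controls (log2 fold change 1.37). Xirp2 and Nrap, which anchor filaments at the intercalated disc, rose with 1.53 and 0.63. The 3 that fell were Tmod1, which caps the pointed end, Tnni3, cardiac troponin I, and Nebl, nebulette, with -0.53, -0.47 and -0.49. Of 17 genes for the folding and modification of actin, 2 rose, Setd3, the actin histidine methyltransferase, and Cct8, a chaperonin subunit (0.28 and 0.32), and 1 fell, the prefoldin subunit Pfdn6 (-0.59). Together these calls were no more frequent than the 19.3% over all tested genes, and the median was -0.05. In this list 1 gene rose when control replicate 1 or any of cKO replicates 2 to 4 was left out, in males alone and with no filter, and 0 when control replicate 2 was left out.

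The genes most like each actin gene over the 8 libraries were named by Pearson's r of log2 CPM among 9168 genes with a mean of at least 10 CPM, as a description, since genes of the same 8 libraries share genotype, depth and sex. For Acta1 these were Fam220a, Parp3 and Slc12a4, with r of 0.997, 0.997 and 0.993, and 274 genes had an r above 0.9. For Actc1 they were Trp53inp2, Sf3b3 and Fkbp1a (0.97, 0.97 and 0.95), for Acta2 Mamld1, Map3k11 and St3gal1 (0.98, 0.96 and 0.95), and for Actg2 Mdfic, 9230112E08Rik and Prickle2 (0.97, 0.96 and 0.94). Actb was most like Cd276, Gusb and Kctd17 (0.99, 0.97 and 0.97), and Actg1 most like Dlg5, Slco2a1 and Dlg4 (0.99, 0.99 and 0.98). Once genotype means were removed, the nearest gene was Trub2 for Acta1, Hspg2 for Actc1, Mamld1 for Acta2, Tldc1 for Actg2, Cd276 for Actb and Vgll4 for Actg1, with r from 0.98 to 0.99. Within the family the deviations of Actc1 and Acta2 were the most alike (r = 0.87), followed by Actb and Actg1 (0.86), and those of Acta1 and Actg1 the least (0.02).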

How the data were processed

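Stranded libraries of polyadenylated RNA from ventricles were sequenced, per the labels' protocols. The authors deposited whole-number counts per gene symbol, 1 column per library. Tools listed in the submitters' processing notes are HISAT2 2.0.4, featureCounts 1.6.0, edgeR 3.30.3 and FastQC 0.11.4, with builds mm10 and GRCm38. For annotation release, strand setting and multi-mapping reads the sources used here give nothing. The table's 24 rows with a number for a name (0.115% to 0.132% of counts) were left out.

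The test was edgeR 4.0.16's quasi-likelihood test in R 4.3.3 on all genes passing filterByExpr, with TMM, genotype as the only term and Benjamini-Hochberg adjustment, two-sided. Standard errors come from the F statistic, as absolute log2 fold change over root F. On simulated counts of 16051 genes for cKO over control it recovered 47.8% of 1.5-fold, 73.1% of 2-fold and 95.5% of 4-fold changes, with 10 false calls. The simulation used the spread that the fitted trend gives at each gene's level, with no sex effect and no library set apart. These rates hold for that setting, not for each gene of the real data. CPM per kilobase used the union of GENCODE M21 exons, matched by symbol (97.9% of rows). Likeness used log2 CPM with a prior count of 2. Replicates were not duplicates (chi-square per degree of freedom 7.79 to 34.8).

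The members and lists were chosen with earlier results of these data known. Named genes were the 6 actin genes, Rbpms, up to 3 called members of each list with the smallest adjusted p, and the 3 genes most like each actin gene; further list members were named after their values were seen. Alternatives were other scalings and filters, robust dispersions, DESeq2 1.42.0, limma-voom (3.58.1), sex as a covariate, males alone and each library left out.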

Additional observations from a re-analysis of the deposited data

How the results depend on the processing

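No paired analysis was possible because the labels give no replicate numbers that link libraries across genotypes. Acta1 and Actg1 were called higher in all 19 alternatives, with log2 fold changes of 2.501 to 3.89 and 0.34 to 0.47. Actc1, Actg2 and Actb were not called in any of them and kept their sign. Acta2 was called lower with no filter on low counts (log2 fold change -0.50, adjusted p = 0.0127) and with sex as a covariate (-0.52), which makes 1 actin gene lower in each. The cause was not tested. With total counts as the only scaling 1021 genes were lower, against 1547, and 66.1% of called genes were higher, against 50.02% with TMM.

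Leaving out each library gave 1129 to 1458 genes higher and 1093 to 1418 lower, with 2 actin genes higher and 0 lower each time. The difference in share, cKO minus control, of Actg1 was 0.13 percentage points and ran from -0.059 to 0.26 when each library was left out, turning negative without control replicate 4. Taking Actc1 out of the sum, which by construction raises the weight of Acta1, gave differences of 49.4 points for Acta1, -12.7 for Acta2, -25.5 for Actb, -11.2 for Actg1 and -0.082 for Actg2, the last 2 with the opposite sign. Counts per kilobase, of exon or of the main transcript (the second chosen after seeing the data), moved each share difference by less than the larger of the SDs of the genotypes. Spearman's rho for Fam220a with Acta1 and for Cd276 with Actb was 0.88. Depth limits Actg2, at 20 to 51 counts per library.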
